A study of Mus musculus with 6 samples.

Results

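Sweet and umami taste signalling was examined in GLUTag cells through 10 genes, namely the taste receptor genes Tas1r1, Tas1r2 and Tas1r3 and the genes of the chain behind them, Gnat3, Gnb3, Gng13, Plcb2, Itpr3, Trpm5 and Calhm1. The members were chosen by name, as the rows of the count table whose Ensembl identifier maps to these mouse symbols, and all 10 were found among the 54281 genes of the table.

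In taste buds, TAS1R2 pairs with TAS1R3 to form the sweet receptor and TAS1R1 pairs with TAS1R3 to form the umami receptor for amino acids. The receptor activates gustducin, a G protein with the alpha subunit encoded by Gnat3 and the beta and gamma subunits encoded by Gnb3 and Gng13, and the released beta-gamma dimer stimulates phospholipase C beta, encoded by Plcb2. The IP3 that this enzyme makes opens the IP3 receptor encoded by Itpr3, stored calcium opens the cation channel TRPM5, and the depolarised cell releases ATP through a channel that contains CALHM1. Parts of this chain are known from tuft cells of the gut, and sweet receptors have been studied as glucose sensors of GLP-1-secreting L-cells.

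GLUTag is a GLP-1-secreting mouse enteroendocrine line derived from a colonic tumour of a mouse in which the proglucagon promoter drove the SV40 large T antigen; it is a single line. The 6 libraries were made from polyadenylated RNA of wells grown for 48 h on Matrigel in medium with 1 g/L glucose and 10% FBS, with no treatment. Of these wells, 3 were on plate 1 at passage 23 and 3 on plate 2 at passage 27, which means that effects of plate and of passage cannot be told apart. Nothing in the labels says that wells of a plate came from separate cultures, so tests measure the spread between these libraries, which may be technical.

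The libraries were read from the 3′ end of each transcript, so a count stands for a transcript end and levels of different genes were compared as counts per M counts of the library (CPM), without division by length. The totals were between 21399987 and 36488198 counts, and the plate 2 libraries are called by lowest, middle and highest total because their columns carry no replicate number of the labels. A count of 0 was taken to allow up to 3 counts, which is between 0.0822 and 0.14 CPM, and this limit covers counting error only. The plate 2 library of middle total stood apart, since 354 of the 5031 genes whose mean reached 30 CPM fell short of its plate mates by over 2-fold there, against at most 3 in any other library. In the plate 2 library of highest total, 49 of these genes were over 2-fold above its plate mates, against at most 4 elsewhere. The labelled cell type had its markers, as all 10 enteroendocrine genes examined were above 3 counts in every library and Gcg, the proglucagon gene, had a mean of 3416 CPM.

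The genes of the taste chain ranged from 3 without a count to Itpr3 at a mean of 3.04 CPM. Of the 10 genes, 7 had at least 1 count in some library, against 49.8% of all genes in the table, which include many noncoding genes and pseudogenes. Above 3 counts in every library were 2 of 10 (Itpr3 and Plcb2), against 28.1% of all genes, and without the plate 2 library of lowest total it was 4 of 10, with Tas1r1 and Tas1r3. A mean of 1 CPM was reached by Itpr3 alone, against 13516 of 54281 genes. The median of the members' means was 0.118 CPM over all 10. The median over all genes of the table was 0, and the 27044 with any count had a median of 0.994 CPM. The summed level of the members was between 2.61 and 6.73 CPM per library. In bulk RNA, a few cells with much of a transcript and many cells with little of it cannot be told apart.

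**Figure D1:**
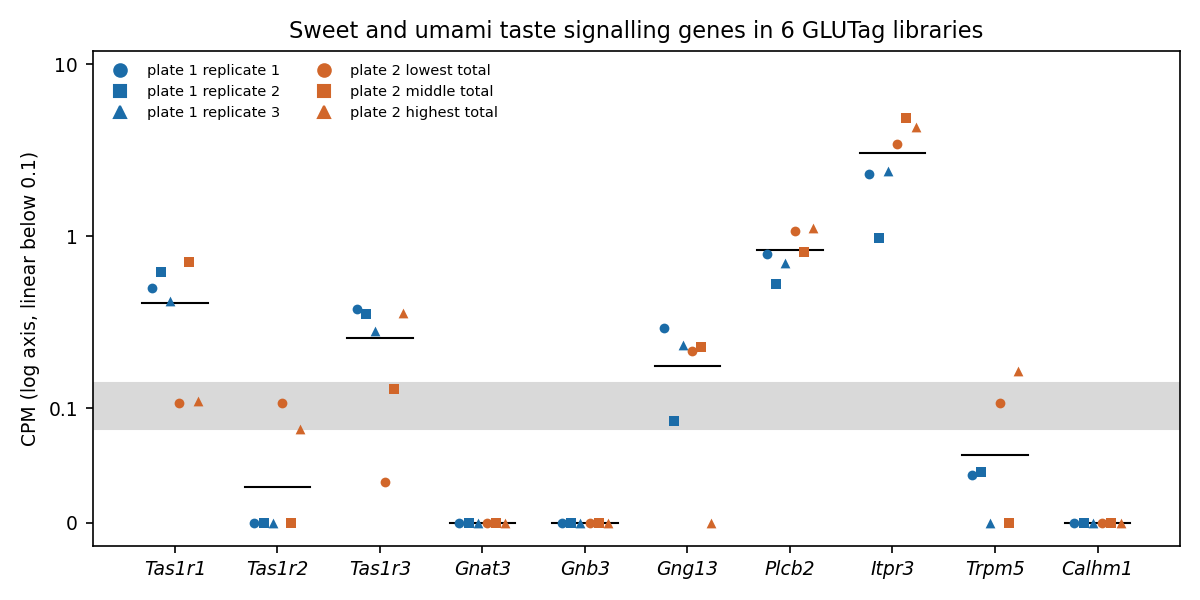
CPM of each of the 10 genes in each library on a log axis that is linear below 0.1, with plate 1 in blue, plate 2 in orange and the mean as a black line. The grey band spans the limit of 3 counts, from 0.0822 to 0.14 CPM. Itpr3 and Plcb2 lie above the band in all 6 libraries, and Gnat3, Gnb3 and Calhm1 lie at 0.

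The promoter windows of 3 genes from across this range are given here with their CG dinucleotides, which mark one class of mammalian promoters. That of Itpr3 holds many (30) and those of Plcb2 and Gnat3 few (5 and 4). The sequences are those of RefSeq on GRCm38.p6, with 250 bases before and 50 bases after the annotated start, 5′ to 3′ on the strand of the gene, and capitals mark each CG. Itpr3, the highest member, is at chr17:27057054-27057353 on the plus strand, Plcb2, the next, is at chr2:118728389-118728688 on the minus strand, and Gnat3, which had no count, is at chr5:17962320-17962619 on the plus strand.
Itpr3: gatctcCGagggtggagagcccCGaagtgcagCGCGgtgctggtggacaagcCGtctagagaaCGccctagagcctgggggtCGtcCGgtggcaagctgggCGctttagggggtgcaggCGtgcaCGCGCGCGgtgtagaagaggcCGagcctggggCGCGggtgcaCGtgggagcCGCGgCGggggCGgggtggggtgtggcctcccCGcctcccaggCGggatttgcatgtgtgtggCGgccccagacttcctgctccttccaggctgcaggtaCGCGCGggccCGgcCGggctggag
Plcb2: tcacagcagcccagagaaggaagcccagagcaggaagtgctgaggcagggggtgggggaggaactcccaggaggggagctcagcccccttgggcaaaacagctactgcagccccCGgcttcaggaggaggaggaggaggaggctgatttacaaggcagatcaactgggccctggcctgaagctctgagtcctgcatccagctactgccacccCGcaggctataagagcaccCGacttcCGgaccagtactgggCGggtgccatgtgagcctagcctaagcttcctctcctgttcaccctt
Gnat3: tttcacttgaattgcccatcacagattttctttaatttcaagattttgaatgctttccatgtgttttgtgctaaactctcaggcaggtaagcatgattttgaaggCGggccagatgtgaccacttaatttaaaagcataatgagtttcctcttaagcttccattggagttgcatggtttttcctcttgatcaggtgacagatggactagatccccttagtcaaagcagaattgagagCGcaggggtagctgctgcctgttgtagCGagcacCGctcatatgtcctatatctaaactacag

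Among the receptor genes, Tas1r1 (ENSMUSG00000028950, chromosome 4 of GRCm38, 152027914 to 152038568, minus strand) encodes the umami-specific subunit and was the highest. It had 12, 14 and 9 counts in replicates 1, 2 and 3 of plate 1, and 3, 22 and 4 counts in the plate 2 libraries of lowest, middle and highest total, with a mean of 0.411 ± 0.255 CPM (SD, n = 6). The 22 counts are in the library that stood apart, at 0.712 CPM with an exact 95% interval from 0.446 to 1.08, and its plate mate of highest total was at 0.11 CPM with an interval from 0.0299 to 0.281. These libraries were singled out after their counts were seen, and the intervals cover counting error only. The 3 libraries of plate 1 lay closer together.

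Tas1r3 (ENSMUSG00000029072, chromosome 4, 155859268 to 155863362, minus strand) encodes the subunit shared by both receptors. It had 9, 8 and 6 counts on plate 1 and 1, 4 and 13 counts on plate 2, in the same order of libraries, with a mean of 0.255 ± 0.141 CPM (SD, n = 6). It was detected in all 6 libraries but was above 3 counts in 5 of them. Its last 36 exon bases are shared with Dvl1, which ends on the opposite strand and had 26.3 CPM, and the strand setting of the counting is not given in the sources used here, so the part of Dvl1 reads in these few counts was not tested.

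Tas1r2 (ENSMUSG00000028738, chromosome 4, 139653538 to 139670280, plus strand), the sweet-specific subunit, had 0 counts in all 3 libraries of plate 1 and in the plate 2 library of middle total, and 3 counts in each of the other 2. Its mean was 0.0315 ± 0.0494 CPM (SD, n = 6), and 0.0164 CPM without the plate 2 library of lowest total. Thus the sweet-specific subunit was never above 3 counts, whereas the umami-specific subunit was above it in 5 of 6 libraries. Other taste and amino acid receptor genes were low too. All 35 bitter receptor genes (Tas2r) and the 5 Tas2r pseudogenes of the table had 0 counts in all 6 libraries, as did Casr, the calcium-sensing receptor, and Gprc6a, a receptor for basic amino acids, had a mean of 0.527 CPM.

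The 3 gustducin subunits were at 0 or at few counts. Gnat3 (ENSMUSG00000028777, chromosome 5, 17962549 to 18019834, plus strand), the alpha subunit, had 0 counts in each of the 6 libraries, so at this depth it was not detectable. Gnb3 (ENSMUSG00000023439, chromosome 6, 124834240 to 124840275, minus strand), the beta subunit, also had 0 counts in each library. Gng13 (ENSMUSG00000025739, chromosome 17, 25717171 to 25719406, plus strand), the gamma subunit, had 7, 2 and 5 counts on plate 1 and 6, 7 and 0 counts on plate 2, with a mean of 0.176 ± 0.109 CPM (SD, n = 6). It was thus seen in 5 libraries and missed in the deepest one. The last 399 exon bases of Gng13 are shared with Chtf18 on the opposite strand, a gene with 30.1 CPM, and the part of its reads in the counts of Gng13 was not tested.

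Other subunits of the same families included abundant genes. Of the relatives, 5 of 7 for Gnat3, 4 of 4 for Gnb3 and 8 of 11 for Gng13 reached a mean of 1 CPM. Over the table, 13516 of 54281 genes did. Each member was set against each relative within the library, as the difference of log2(CPM + 1), by flipping the signs of the 6 library values in an exact permutation test, two-sided. The 31 pairs in which either gene had a mean of at least 0.1 CPM were adjusted together by Benjamini-Hochberg, and 0.03125 is the smallest p that 6 libraries allow. The member was lower in 6 of 6 libraries in 28 pairs, and these 28 pairs passed (adjusted p = 0.0346 each, exact permutation), with differences from −9.30 to −0.33 on the log2(CPM + 1) scale, which understates the change of low genes. In 12 of the 28 pairs the member (Gnat3, Gnb3 or Calhm1) had no count, so the direction was fixed once the relative was counted in every library, and 3 pairs, those of Trpm5, entered through the level of the relative alone. These 15 are a description. Over the 16 pairs whose member itself had a mean of at least 0.1 CPM, a filter chosen after seeing the data, 13 passed (adjusted p = 0.0385 each, exact permutation), 9 of Gng13, 3 of Plcb2 and 1 of Itpr3.

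Gnai2, a Gi alpha subunit, had 632 CPM and was in the least favourable library at least 3735-fold higher than Gnat3 taken at its limit of 3 counts. Gnao1 had 89.4 CPM, Gnaz 77.3, Gnai3 57.1 and Gnai1 31.2, while the transducin genes Gnat2 and Gnat1, the closest relatives of gustducin, had 0.586 and 0.28 CPM. Gnat1 had as little as 1 count in a library, which is within the limit that a count of 0 allows, so Gnat3 was not shown to be lower than Gnat1.

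For the beta subunit, Gnb2 had 244 CPM and Gnb1 226 CPM, at least 895-fold and 1358-fold higher than Gnb3 at its limit, and Gnb5 and Gnb4 had 13.0 and 4.92 CPM. The plate 2 library of middle total was the lowest for Gnb2, as the plot of the families shows. For the gamma subunit, Gng12 had 418 CPM, Gng3 310, Gng2 135, Gng10 128, Gng5 92.1, Gng4 13.5, Gng8 6.74 and Gng7 3.66, and Gng13 made up 0.016% of the summed gamma transcripts. Gng13 was lower than 9 of 11 gamma genes. Its difference from the cone gene Gngt2, at 0.184 CPM, was 0.00 ± 0.25 (SD, n = 6, adjusted p = 1, exact permutation). Gng13 was higher in 5 libraries than the rod gene Gngt1, which had no count, by 0.23 ± 0.14 (SD, n = 6, adjusted p = 0.0668, exact permutation).

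**Figure D2:**
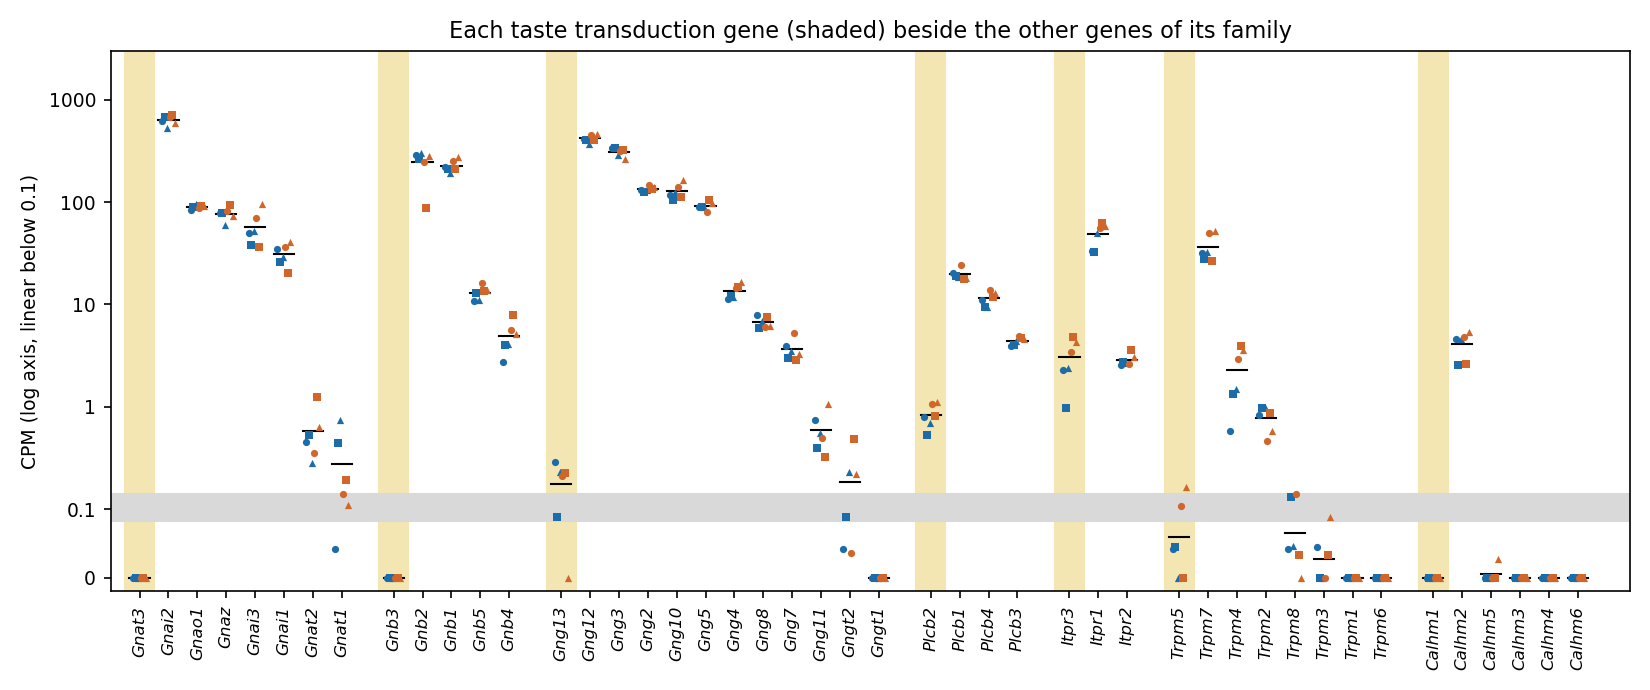
CPM in each library, on a log axis that is linear below 0.1, of each transduction gene (shaded column) beside the other genes of its family in falling order of mean. Points are libraries, coloured and shaped as in the plot of the members, black lines are means, and the grey band is the limit of 3 counts. In each of the 7 families the taste gene lies under the highest relative in all 6 libraries, and the points of Itpr3 overlap those of Itpr2.

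Plcb2 (ENSMUSG00000040061, chromosome 2, 118707517 to 118728438, minus strand), the effector of the chain, had 19, 12 and 15 counts on plate 1 and 30, 25 and 41 counts on plate 2. Its mean was 0.837 ± 0.224 CPM (SD, n = 6), and it was detected in every library, with the highest count in the deepest. The other phospholipase C beta genes were higher, with 19.7 CPM for Plcb1, 11.5 CPM for Plcb4 and 4.42 CPM for Plcb3. Plcb2 was lower than the nearest of them, Plcb3, by −1.57 ± 0.13 on the log2(CPM + 1) scale (SD, n = 6, adjusted p = 0.0346, exact permutation). It made up 2.28 ± 0.467% (SD, n = 6) of the summed transcripts of the 4 genes. Plcb2 is also used by blood cells. Of 10 leukocyte markers, 2 were above 3 counts in every library, against 28.1% of all genes. These were Coro1a with 6.93 CPM and Itgam with 1.24 CPM, and the pan-leukocyte gene Ptprc had at most 4 counts in a library. The median of the 10 means was 0.0477 CPM. The list summed to between 7.10 and 10.6 CPM, most of it from Coro1a. The part of such cells in the level of Plcb2 was not tested.

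The alpha subunits of the Gq family, which activate phospholipase C beta directly and are not part of gustducin, included 2 abundant genes, Gna11 with 175 CPM and Gnaq with 120 CPM. Gna15 and Gna14 had 0.195 and 0.0123 CPM.

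Itpr3 (ENSMUSG00000042644, chromosome 17, 27057304 to 27122223, plus strand), the IP3 receptor of taste cells, was the highest of the 10 genes. It had 55, 22 and 51 counts on plate 1 and 96, 150 and 158 counts on plate 2, or 2.29, 0.972, 2.38, 3.42, 4.85 and 4.33 CPM. The mean was 3.04 ± 1.44 CPM (SD, n = 6), and all libraries of plate 2 were above all those of plate 1, which on this scale held for 35.2% of the genes tested between the plates. The antisense gene Itpr3os and the microRNA gene Mir7677, which lie within its span, had 0 counts.

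Itpr1, the IP3 receptor typical of neurons, had 48.6 CPM and exceeded Itpr3 in every library. The difference of Itpr3 minus Itpr1 was −3.66 ± 0.29 (log2 scale of CPM + 1, SD, n = 6, adjusted p = 0.0346, exact permutation). Itpr2 had 2.88 CPM, and the difference of Itpr3 from it was −0.02 ± 0.50 (SD, n = 6, adjusted p = 0.969, exact permutation). Itpr3 was higher than Itpr2 in 3 libraries and lower in 3. The mean difference was −0.39 on plate 1 and 0.34 on plate 2. Itpr3 made up 5.35 ± 1.59% (SD, n = 6) of the summed transcripts of the 3 receptors.

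Trpm5 (ENSMUSG00000009246, chromosome 7, 143069153 to 143094642, minus strand), the transduction channel, had 1, 1 and 0 counts on plate 1 and 3, 0 and 6 counts on plate 2, with a mean of 0.0595 ± 0.0646 CPM (SD, n = 6). It passed 3 counts in the deepest library alone, and its mean was 0.0385 CPM without that library. Its final exon shares 217 of its last 500 bases with Tssc4 on the opposite strand, a gene with 112 CPM, whose part in these counts was not tested. Trpm4, the other calcium-activated monovalent cation channel of the family, had 2.30 CPM and was higher than Trpm5 in 6 of 6 libraries. The difference of Trpm5 minus Trpm4 was −1.53 ± 0.62 (log2 scale of CPM + 1, SD, n = 6), which is given as a description. Trpm7, a channel with a kinase domain, led the family with 36.8 CPM.

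Calhm1 (ENSMUSG00000079258, chromosome 19, 47140909 to 47144254, minus strand), a pore subunit of the ATP release channel, had 0 counts in all 6 libraries, as did Calhm3, its partner in taste cells. Calhm2 was the one CALHM gene with a mean of at least 1 CPM, at 4.08 CPM, and was at least 19.3-fold higher than Calhm1 at its limit in the least favourable library. Panx1, another ATP-permeable channel, had 6.47 CPM.

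In order of mean level the genes ran Itpr3, Plcb2, Tas1r1, Tas1r3, Gng13, Trpm5 and Tas1r2, followed by the 3 at 0. Itpr3 exceeded Plcb2 in 6 of 6 libraries, although their ranges over all libraries overlapped. Plcb2 exceeded Tas1r1 and Tas1r1 exceeded Tas1r3 in 5 of 6 libraries each, with mean differences of 0.426 ± 0.457 and 0.156 ± 0.27 CPM (SD, n = 6). From Plcb2 downwards, no neighbours in this order differed by more than the SD of their difference.

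Of 13 other taste cell genes, 4 were above 3 counts in every library, against 28.1% of all genes. A mean of at least 1 CPM was reached by 3 of the 13, against 13516 of 54281 genes. These were Ric8b, a chaperone of G alpha subunits, with 27.8 CPM, Panx1 with 6.47 CPM and Pkd2l1, a channel of sour-sensing cells, with 1.34 CPM. Rgs21, P2rx2, P2rx3 and Kcnq1 had 0 counts in all 6 libraries, and Pou2f3, the transcription factor of sweet, umami and bitter taste cells and of tuft cells, had 1 count in all libraries together.

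Tuft cells are gut cells known for parts of this chain, so their markers were counted as well. Of 14, 5 were above 3 counts in every library, against 28.1% of all genes. These were Dclk1 with 67.2 CPM, Alox5ap with 10.9 CPM, Avil with 2.08 CPM, Hpgds with 1.86 CPM and Ptgs1 with 1.19 CPM, whereas Il25, Sh2d7 and Il17rb had 0 counts. A mean of at least 0.1 CPM was reached by 6 of the 14, and the median of the 14 means was 0.0406 CPM. The list summed to between 75.6 and 91.9 CPM, most of it from Dclk1, which neurons and endocrine cells also express. Of 6 enterocyte markers, 3 were above 3 counts in every library, against 28.1% of all genes. Vil1 was the highest with 2.13 CPM, and Fabp2 and Apob had 0 counts.

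**Figure D3:**
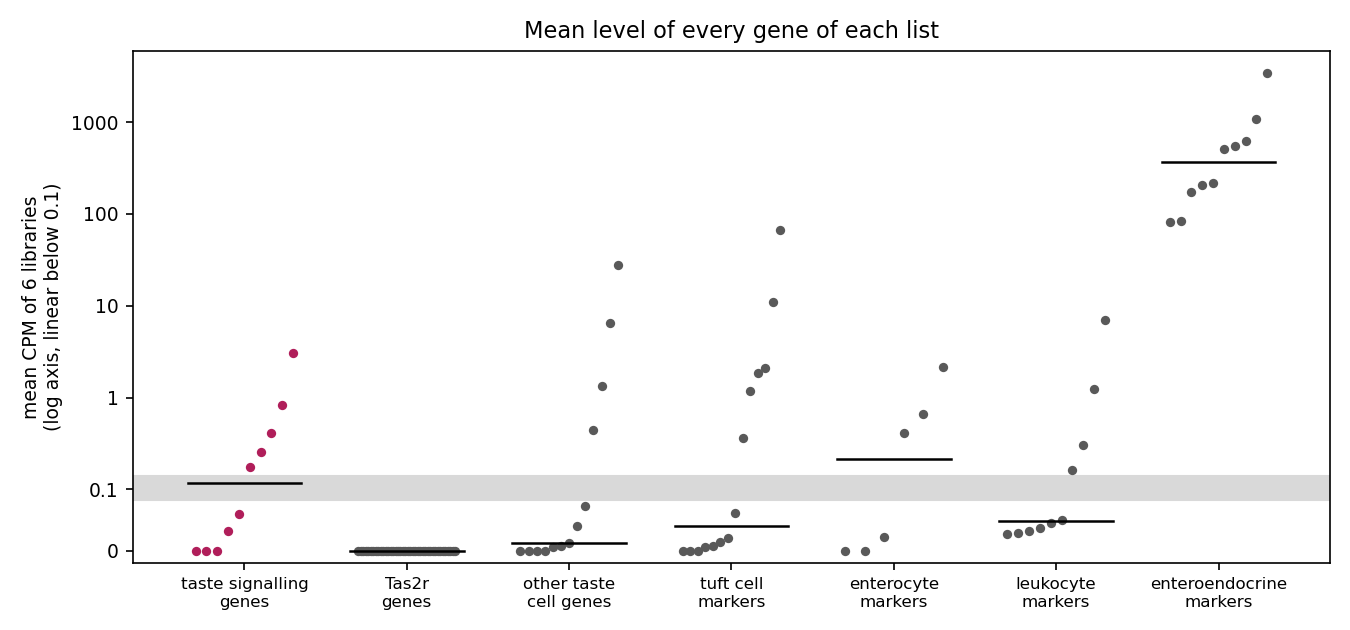
Mean CPM over the 6 libraries, on a log axis that is linear below 0.1, of every gene of each list, with the median as a black line and the limit of 3 counts as a grey band. The members' median of 0.118 CPM lies in the band, all 40 Tas2r genes, of which 5 are pseudogenes, lie at 0, and the 10 enteroendocrine markers have a median of 368 CPM.

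The only contrast among these libraries is that of plate 2 against plate 1. It was tested with edgeR's quasi-likelihood test on 15669 genes, with scaling by trimmed mean of M values (TMM) and Benjamini-Hochberg adjustment. Of the genes tested, 29 (0.185%) passed an adjusted p of 0.05. That count was 0 without plate 1 replicate 1 or without the lowest total of plate 2, 1911 without the middle total of plate 2, and 579 with DESeq2. Of the members, Itpr3, Plcb2 and Tas1r1 had enough counts to be tested and the other 7 did not. None of the 3 passed. Before adjustment, 1 of them, Itpr3, had a p under 0.05, as had 16.1% of all genes tested.

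On the TMM scale, Itpr3 had 2.55, 1.12 and 2.61 CPM on plate 1 and 3.13, 4.59 and 4.02 CPM on plate 2. The groups did not overlap, and the mean was 2.09 ± 0.844 on plate 1 and 3.91 ± 0.736 on plate 2 (SD, n = 3 each). Of all genes tested, 12.8% were likewise higher on plate 2 without overlap. The log2 difference of plate 2 minus plate 1 was 0.90 (SE 0.34, unadjusted p = 0.0245, edgeR adjusted p = 0.234), and it was 0.60 (adjusted p = 0.521) without replicate 2 of plate 1, the lowest library.

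Plcb2 differed by 0.30 (SE 0.39, edgeR adjusted p = 0.763), with 0.17 to 0.43 when each library was left out, and its TMM-scaled ranges overlapped. Tas1r1 differed by −0.99 (SE 0.78, edgeR adjusted p = 0.587), with plate 2 holding both its highest and its lowest library before scaling. Without the plate 2 library of middle total, which stood apart and holds the 22 counts, the difference of Tas1r1 was −2.50 (SE 0.87, edgeR adjusted p = 0.0752). Without the lowest or the highest total of plate 2 it was −0.59 or −0.57, with an edgeR adjusted p of 0.815 or 0.81. In the main edgeR fit of all 6 libraries, the relatives of the members did not pass either, and none of the other genes of the lists passed. Gna11, a Gq alpha subunit, had the lowest p of the listed genes and was lower on plate 2 without overlap, by −0.85 (SE 0.14, edgeR adjusted p = 0.0563), as were 12% of all genes tested. Trpm4 was higher on plate 2 without overlap, with 1.27 ± 0.54 TMM-scaled CPM on plate 1 and 3.23 ± 0.522 on plate 2 (SD, n = 3 each; log2 difference 1.35, edgeR adjusted p = 0.136), and Itpr1 differed by 0.35 (adjusted p = 0.347) and Itpr2 by −0.06 (adjusted p = 0.935). Panx1 had 5.24 ± 0.852 on plate 1 and 7.70 ± 1.82 on plate 2 (SD, n = 3 each, edgeR adjusted p = 0.281). Among the relatives, Gnb4 was also higher on plate 2 without overlap on the TMM scale. In the other direction, Trpm2, Gnb2, Gng2, Gng3 and Gnao1 were lower on plate 2 without overlap on that scale, as were 12% of all genes tested. These calls depend on the scaling. In CPM over the column total, Gng2 was higher on plate 2 without overlap, and Trpm2, Gnb2, Gng3 and Gnao1 overlapped. Trpm2 had a log2 difference of −0.80 (edgeR adjusted p = 0.396).

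**Figure D4:**
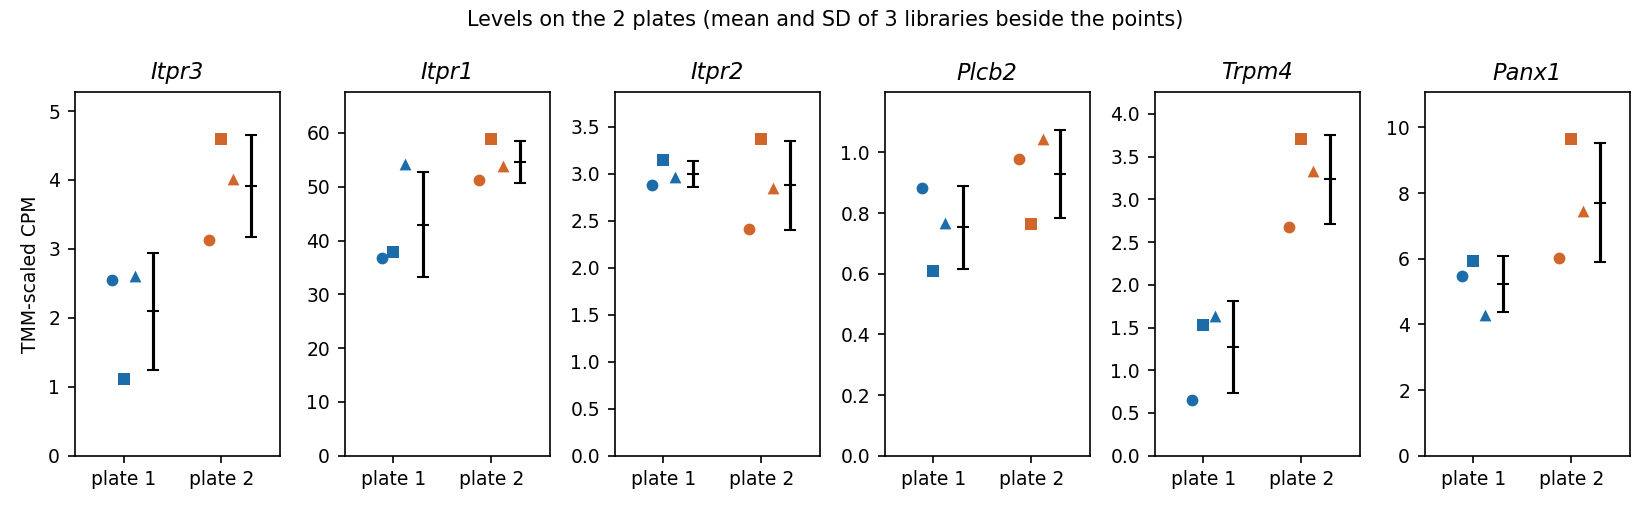
TMM-scaled CPM, on linear axes that start at 0, of 6 genes in the 3 libraries of plate 1 (blue) and the 3 of plate 2 (orange), with the mean and SD of each plate beside the points. Itpr3, Trpm4 and Panx1 do not overlap between the plates, Itpr1, Itpr2 and Plcb2 do, and none of the 6 passed the test across all genes.

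Jam3, Gm11772 and Slc44a2 had the levels most like those of Itpr3 across the 6 libraries, with Pearson's r of log2(CPM + 1) of 0.997, 0.995 and 0.993. The value is a description over 6 points that share plates and depth, and 838 of the 12360 genes that reached 1 CPM in every library (6.78%) had an r above 0.9.

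Of the promoter windows printed above, that of Itpr3 differs from those of Plcb2 and Gnat3 in CG content. That of Itpr3 holds 30 CG dinucleotides, and 11.7% of the 32851 windows of this length in the RefSeq table hold as many or more. Those of Plcb2, Tas1r1, Tas1r3 and Trpm5 hold 5 each, that of Gnat3 4, that of Calhm1 6 and that of Tas1r2 8, against a median of 7 over all windows. Gng13 has 2 annotated starts, with 6 and 34 CG dinucleotides. For Gnb3 no window was given.

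Taking the richest start of each gene, the 9 genes with a window had a median of 5 and their 30 relatives with one a median of 18.5. Among both together, the 21 genes that reached a mean of 1 CPM had a median of 27, with a range from 2 to 53, and the 7 genes at 0 had a median of 4 and a maximum of 9. The ranges overlap widely. Gng3 had 2 CG dinucleotides at 310 CPM, Gng2 5 at 135 CPM, Gnb5 5 at 13.0 CPM and Gng8 8 at 6.74 CPM, and the other way, Gng13 had 34 at one of its starts and 0.176 CPM, Trpm3 21 at one of its starts and 0.0275 CPM and Trpm2 15 at 0.785 CPM. The letters CG read the same on both strands, a count of them is a description of the window, and no methylation was measured here.

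**Figure D5:**
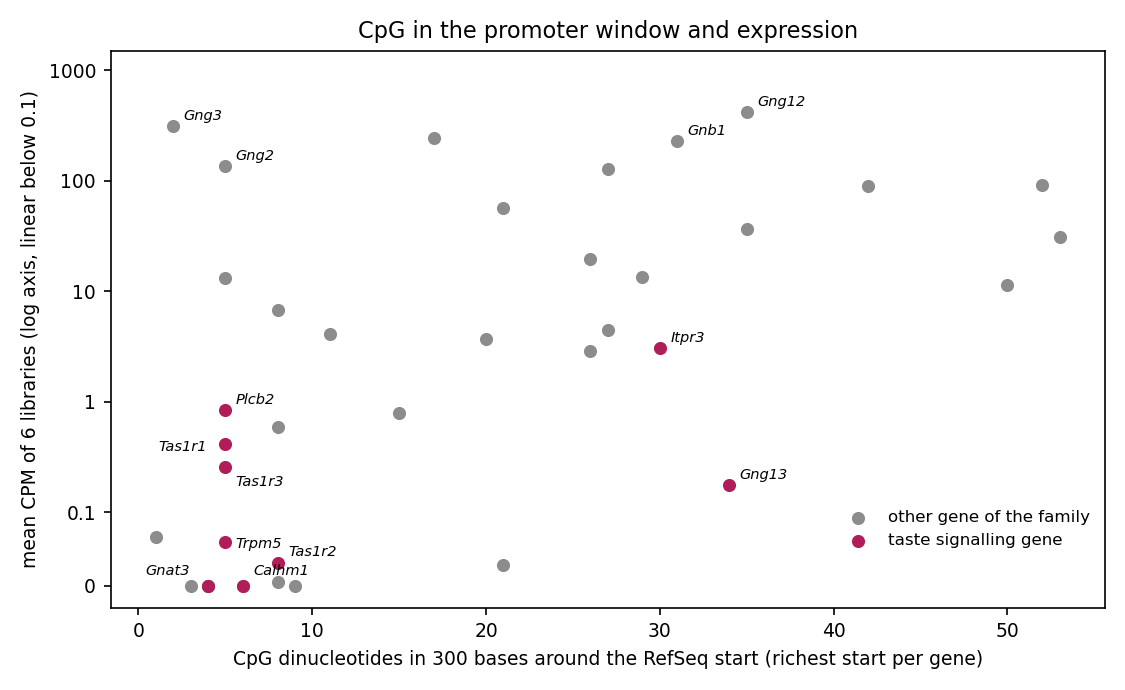
Number of CG dinucleotides in the 300-base promoter window (richest start of each gene) against the mean CPM of the 6 libraries on a log axis that is linear below 0.1, for the taste signalling genes (magenta) and the other genes of their families (grey). Itpr3, with 30, lies among the expressed relatives, while 7 of the other 8 members have 8 or fewer and lie under 1 CPM.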

How the data were processed

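Polyadenylated RNA of 6 wells of GLUTag cells was sequenced from the 3′ end. The authors trimmed the reads (Trim Galore 0.6.4), assigned them with Salmon 1.5.1 to GENCODE M23 transcripts with GRCm38 as decoy, with no correction for length, and collapsed transcripts to genes. The values they deposited are expected counts, not normalized. CPM was computed over the column total from the unrounded values, and counts were rounded for edgeR.

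Groups are the 2 plates of the labels. Positions are from GENCODE M21 on GRCm38, and 54107 of 54281 identifiers had a symbol. Irag2 was looked up as Lrmp. For the plates, the robust quasi-likelihood test of edgeR 4.0.16 was used with TMM and filterByExpr and was tested on simulated data. The SE printed with an edgeR difference was derived as the absolute log2 difference over the square root of the F statistic. Pairs of genes were compared as described in the text. Alternatives were DESeq2 1.42.0, limma-voom 3.58.1, other scalings, filters and pseudocounts, each plate alone, and the omission of each library. R 4.3.3, Python 3.11.15, numpy 2.4.6, scipy 1.17.1, pandas 2.3.3 and statsmodels 0.14.6 were used.

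Named are the 10 members, genes of the lists with a mean of at least 1 CPM or the highest of their list, and the 3 genes most like each member of at least 1 CPM; genes at 0, defining markers and overlapping genes are named beside them, and Gnat1, Gnat2, Gngt1, Gngt2, Gna14, Gna15, Trpm2 and Trpm3 were named after their values were seen. The members and lists were chosen with earlier results of these data known. Protein sequences and the study's secretion and knockdown experiments were not used here.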

Additional observations from a re-analysis of the deposited data

How the results depend on the processing

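The other pseudocounts and TMM scaling do not turn a sign within a library, so the 28 passing pairs of a taste gene and a relative had to keep their calls, which says nothing of their stability. The 3 other pairs did not pass there either. With only pairs whose member reached 0.1 CPM, added after seeing the data, the number passing was 13. With 5 libraries the exact sign-flip permutation test cannot go below p = 0.0625, so only the mean differences were recomputed. The number of members above 3 counts in every library, 2 of 10, became 4 with plate 1 alone, and 2 to 4 when each library was left out, with 4 without the plate 2 library of lowest total, since Tas1r1 and Tas1r3 then count as well. Itpr3, Plcb2 and Tas1r1 did not pass between plates under any alternative that tested them (the filter of 1 CPM in every library removed all 3, and DESeq2 gave Tas1r1 no adjusted p), with an adjusted p for Itpr3 from 0.0636 (scaling by library total) to 0.521. The number of genes called between plates, 29 (2 higher and 27 lower on plate 2), was 579 with DESeq2 (154 higher and 425 lower), 10 with limma-voom, 1461 with library totals (1390 higher and 71 lower) and 545 with no filter. It was 0 to 1911 with each library left out, namely 0 without replicate 1 of plate 1 or without the lowest total of plate 2 (edgeR, where 1611 and 2121 genes had an unadjusted p below 0.05), and 1911 without the middle total of plate 2. The cause was not tested. The median log2 difference of all genes was 0.03 with TMM and 0.30 with library totals. A paired analysis was not made, since the labels number the wells in a single series over both plates; the column names number them within each plate, and no source says that equal numbers there mark a pair. At these depths Itpr3 and Plcb2 had 12 to 158 counts per library and the other members 0 to 22, so counting error bears most on the latter.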
